A study of Mus musculus with 7 samples.

Results

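Glycolysis and the steps that decide the fate of pyruvate were followed through 38 genes, named by function and found by their symbols among the 24047 genes of the count table. They cover glucose and lactate transport, hexokinases and phosphofructokinases, the bifunctional fructose-2,6-bisphosphate enzymes, triose and lower glycolysis, lactate dehydrogenase, pyruvate dehydrogenase and its kinases, and glycogen. The cells were SMB21, a line grown as neurospheres from a mouse medulloblastoma of the strain background Ptch1tm1Mps/J, so all libraries carry a Ptch mutation (Ptch1 is the receptor that restrains Hedgehog signalling). Each culture received a lentiCRISPR vector with a guide against Ofd1, Kif3a or GFP, and RNA was taken 2 weeks after infection. Ofd1 encodes a protein of the centriole, Kif3a a motor subunit that builds the cilium, and GFP is absent from the mouse genome and served as the control target. There were 3 Ofd1 CRISPR libraries, 2 Kif3a CRISPR libraries and 2 GFP control libraries. The design text speaks of 3 GFP replicates; the third was not analysed here. The labels call the libraries biological replicates without saying whether they were separate infections, or whether cells were cloned, so the p-values measure the spread between these libraries.

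The libraries held 17961767 to 23022701 counts each, and a floor of 3 counts was worth 0.130 to 0.167 CPM, the unit of counts scaled to a common library size. All 12 markers of the line (Hedgehog targets and granule neuron progenitor genes) were detected in every library, and their summed level was 4177 to 4441 CPM in Ofd1 CRISPR, 4188 to 4477 CPM in Kif3a CRISPR and 4375 to 4483 CPM in GFP controls. Single markers moved beneath that sum: 5 of 12 were lower and 3 higher in each CRISPR group, and with any 1 library left out 2 to 5 were lower and 2 or 3 higher. With all libraries, 8.09% of all tested genes were lower and 6.79% higher in Ofd1 CRISPR, and 10.9% and 9.19% in Kif3a CRISPR. The Hedgehog target Gli1 had 167, 326 and 265 CPM in Ofd1 CRISPR and 201 and 309 CPM in Kif3a CRISPR, against 427 and 477 CPM in GFP controls. Its log2 fold change was -0.84 (adjusted p = 0.0257) in Ofd1 CRISPR and -0.82 (adjusted p = 0.0349) in Kif3a CRISPR; the calls were lost without either GFP control (adjusted p 0.072 to 0.128), by DESeq2 (adjusted p 0.0958 and 0.135) and, in Kif3a CRISPR, without Kif3a CRISPR replicate 1 (log2 fold change -0.54, adjusted p = 0.321). The Kif3a gene had 73.9 and 60.5 CPM in Kif3a CRISPR libraries, against 104 and 104 CPM in GFP controls (log2 fold change -0.63, SE 0.0929, adjusted p = 0.000854). The Ofd1 gene had 21.0, 20.03 and 22.0 CPM in Ofd1 CRISPR libraries, against 22.6 and 23.2 CPM in GFP controls (log2 fold change -0.12, adjusted p = 0.398), which did not pass the test. GFP control replicate 1 stood apart by 34.0 CPM of microglia and macrophage markers, with 15 of 17 detected and Cx3cr1 and C1qa at 0. The other 6 libraries held 2.96 to 4.98 CPM of that list. Ofd1 CRISPR replicate 1 stood apart by 579.6 CPM of the RNA quality list (nuclear and stress transcripts such as Malat1, Fos and Jun), against 368 to 436 CPM in the other 6 libraries. It also had the highest sum of astrocyte markers, 788 CPM, against 589.6 to 743 CPM. The astrocyte list includes Aldoc, itself a gene of the pathway, at 114 CPM in that library. The part of these sums in the results was not tested. Without Ofd1 CRISPR replicate 1, 16 of the 36 tested genes of the pathway were lower in Ofd1 CRISPR, beside 5.70% of all tested genes. In Kif3a CRISPR 23 were then lower, beside 12.8% of all tested genes. Results that change without GFP control replicate 1 are given with their value. The fibroblast list summed to 81.4 to 171 CPM in Ofd1 CRISPR, 90.7 to 133 CPM in Kif3a CRISPR and 259 to 272 CPM in GFP controls, nearly all of it Pdgfra, with Dcn, Col1a2, Col3a1 and Pdgfrb at or near 0; its part in the results was not tested. Fewer cells of a type and less RNA per cell cannot be told apart in such bulk libraries.

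Glycolysis splits glucose into pyruvate and yields ATP without oxygen. Cells take up glucose through transporters of the Slc2a family, and hexokinase traps it as glucose-6-phosphate. Phosphofructokinase then commits the sugar to breakdown under control of fructose-2,6-bisphosphate. Pyruvate is either reduced to lactate by lactate dehydrogenase and exported, or oxidised in mitochondria by the pyruvate dehydrogenase complex, which the Pdk kinases switch off by phosphorylation. Granule neuron progenitors and Hedgehog-driven medulloblastoma are known for aerobic glycolysis, with Hk2 as an enzyme they need. Many glycolytic genes are also targets of the hypoxia-inducible factor HIF, which binds the core letters ACGTG or GCGTG.

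Most of the pathway was lower in both CRISPR groups. The 38 genes together made up 1.13%, 1.20% and 1.29% of all counts in Ofd1 CRISPR libraries and 0.870% and 1.01% in Kif3a CRISPR libraries, against 1.66% and 1.55% in GFP controls. Means were 1.21% ± 0.0829 (SD, n = 3) in Ofd1 CRISPR, 0.938% ± 0.0957 (SD, n = 2) in Kif3a CRISPR and 1.61% ± 0.0731 (SD, n = 2) in GFP controls, and no library of one group fell within the range of another. Of the 38, 36 passed the filter on low counts and entered the test, edgeR's quasi-likelihood F test over 12875 genes; calls are Benjamini-Hochberg adjusted p-values below 0.05. In Ofd1 CRISPR against GFP, 20 of the 36 were lower, 1 was higher and 15 did not pass, where 8.09% of all tested genes were called lower and 6.79% higher (14.9% either way). In Kif3a CRISPR against GFP, 22 were lower, 3 higher and 11 did not pass, where 10.9% of all tested genes were lower and 9.19% higher (20.1% either way). The median log2 fold change of the 36 was -0.33 in Ofd1 CRISPR and -0.58 in Kif3a CRISPR, beside 0.00 and 0.01 over all tested genes. Both comparisons use the same 2 GFP controls. The called falls spanned log2 fold changes of -1.25 to -0.25 in Ofd1 CRISPR (median -0.54) and -2.78 to -0.30 in Kif3a CRISPR (median -0.95). Without GFP control replicate 1 the count lower in Ofd1 CRISPR was 12, and the count lower in Kif3a CRISPR was 19, where 2.90% and 5.14% of all tested genes were then called lower. With library totals in place of TMM factors, 18 members were lower in Ofd1 CRISPR, beside 6.62% of all tested genes. In Kif3a CRISPR 22 were then lower, beside 9.72% of all tested genes. That scaling raised the share of higher calls among all called genes to 57.5% in Ofd1 CRISPR, against 45.6% with TMM.

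**Figure D1:**
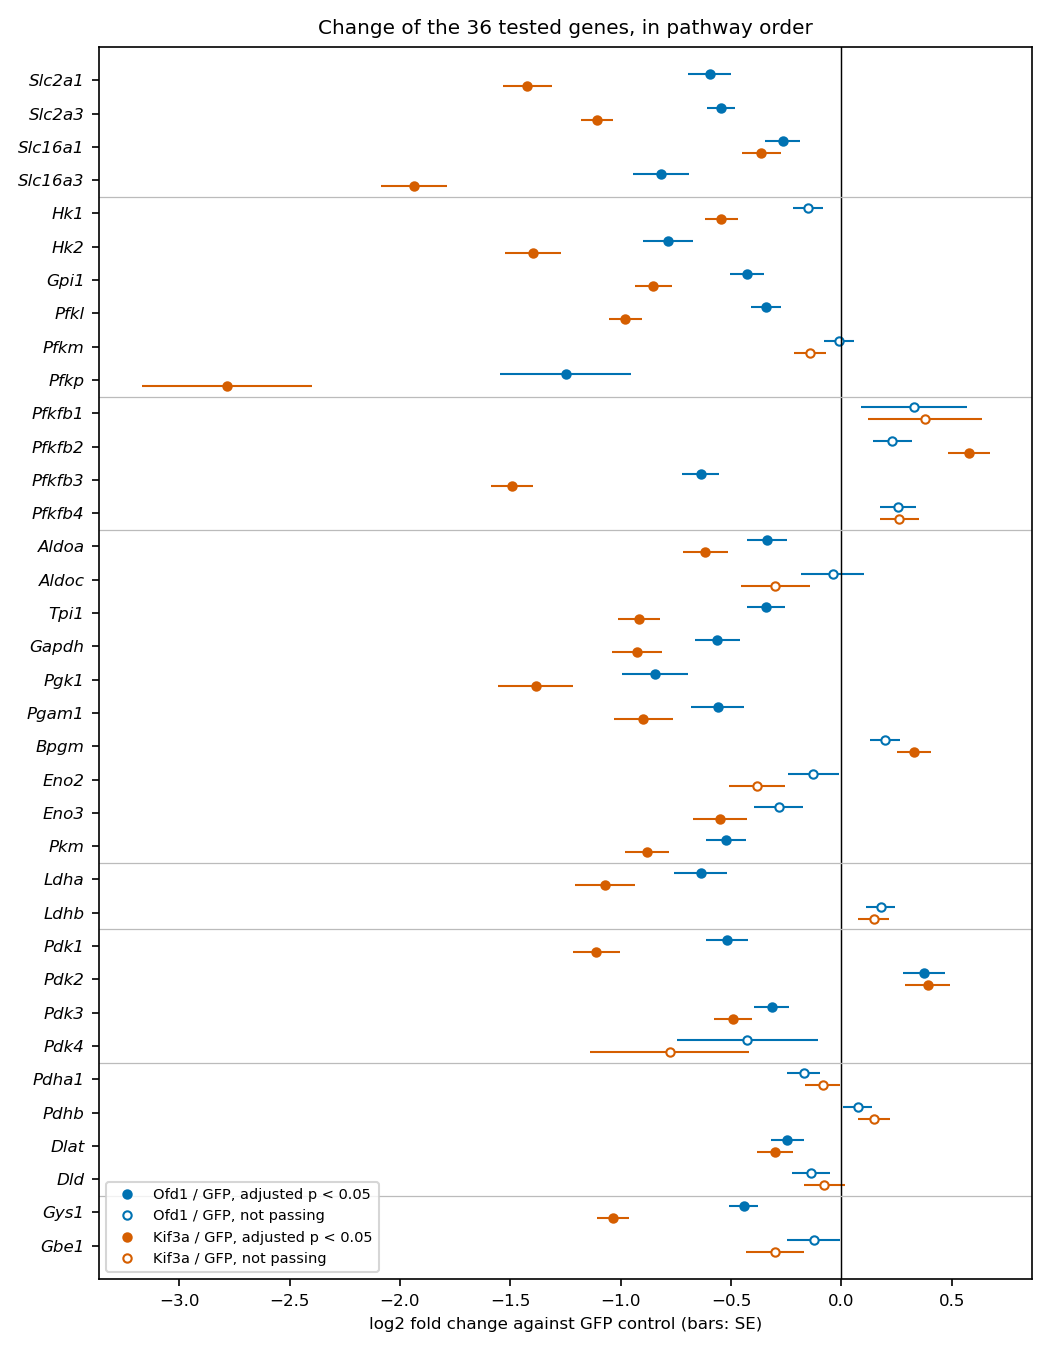
Log2 fold change (bars: SE) of each tested member against the GFP controls, for Ofd1 CRISPR and Kif3a CRISPR, ordered by role. The test called 20 members lower in Ofd1 CRISPR and 22 in Kif3a CRISPR. Falls cluster in transport, phosphofructokinase and lower glycolysis, while Pdk2, Ldhb, Pfkfb2, Pfkfb4 and Bpgm are among those to the right of 0 in both.

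The promoters of 3 members are shown because these genes ranked highest, by the smaller of their falls in the 2 comparisons, among members called lower in both that hold a match to the HIF core letters. Each is the 250 bases before the transcript start in RefSeq's annotation of GRCm38.p6, 5' to 3' on the gene's strand, and capitals mark ACGTG or GCGTG on either strand (their reverse complements are CACGT and CACGC). They are Pfkp (phosphofructokinase, platelet type) at chr13:6648772-6649021 on the minus strand, Pgk1 (phosphoglycerate kinase) at chrX:106186850-106187099 on the plus strand and Slc16a3 (the lactate exporter MCT4) at chr11:120948817-120949066 on the plus strand.
Pfkp: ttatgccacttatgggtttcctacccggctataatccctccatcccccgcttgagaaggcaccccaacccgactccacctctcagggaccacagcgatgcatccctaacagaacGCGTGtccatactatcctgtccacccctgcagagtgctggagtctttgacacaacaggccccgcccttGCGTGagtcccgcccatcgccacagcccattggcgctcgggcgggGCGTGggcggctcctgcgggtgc
Pgk1: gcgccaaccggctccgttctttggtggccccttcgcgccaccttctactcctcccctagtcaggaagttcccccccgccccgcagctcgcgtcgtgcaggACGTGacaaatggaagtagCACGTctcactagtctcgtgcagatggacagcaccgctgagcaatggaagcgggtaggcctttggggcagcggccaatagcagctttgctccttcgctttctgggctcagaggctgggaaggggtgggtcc
Slc16a3: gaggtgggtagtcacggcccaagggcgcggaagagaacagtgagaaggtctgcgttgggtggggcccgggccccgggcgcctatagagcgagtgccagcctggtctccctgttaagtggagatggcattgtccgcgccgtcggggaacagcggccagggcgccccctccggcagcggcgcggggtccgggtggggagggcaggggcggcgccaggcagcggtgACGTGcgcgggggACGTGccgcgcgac

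Slc16a3 holds ACGTG 27 and 14 bases before its start. Pgk1 holds ACGTG 150 bases before and CACGT 131 bases before. Pfkp holds GCGTG 136, 68 and 23 bases before, and once more from base 30 of the transcript. In windows from 250 bases before to 50 after the start, 39 of 56 entries of the members (69.6%) held ACGTG or GCGTG, beside 43.8% of all 32851 entries and 62.4% of the 12435 entries of tested genes. The 56 entries come from 37 genes. Some windows of a gene overlap and share a match, as for Aldoa and Eno1, so entries are not independent. ACGTG alone was in 23 of 56 member entries (41.1%), beside 19.6% of all entries and 25.1% of those of tested genes. CACGTG, the E-box, which overlaps ACGTG, was in 6 of 56 (10.7%), beside 7.15% of all entries and 9.81% of those of tested genes. By gene, ACGTG or GCGTG was in at least 1 entry of 15 of the 19 members with an entry that were lower in Ofd1 CRISPR and of 14 of the 18 other members, and ACGTG alone in 12 and 7. Over all 27025 genes with an entry, the shares were 46.7% for ACGTG or GCGTG and 21.8% for ACGTG alone. The share by gene among tested genes was not computed. Slc2a3 had no entry and the other 37 members had at least 1. A match describes the letters in the window and shows no binding.

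All 4 transporters were lower in both CRISPR groups. Slc2a1 (GLUT1), the main glucose carrier of dividing cells, had 84.2, 86.7 and 78.7 CPM in Ofd1 CRISPR libraries and 42.3 and 51.7 CPM in Kif3a CRISPR libraries, against 136 and 115 CPM in GFP controls. The groups did not overlap, and the Kif3a CRISPR libraries were the lowest. Slc2a1 fell, on the log2 scale, by 0.60 in Ofd1 CRISPR (SE 0.0959, adjusted p = 0.00221) and by 1.42 in Kif3a CRISPR (SE 0.11, adjusted p = 1.62e-05). Slc2a3 (GLUT3), a high-affinity glucose carrier typical of neurons, had 136, 132 and 131 CPM in Ofd1 CRISPR and 87.2 and 93.4 CPM in Kif3a CRISPR, against 199 and 190.01 CPM in GFP controls, again in 3 separate bands. For Slc2a3, the log2 fold change against GFP was -0.55 (SE 0.0636, adjusted p = 0.0004) in Ofd1 CRISPR and -1.11 (SE 0.0715, adjusted p = 8.42e-06) in Kif3a CRISPR. Slc16a3, which exports lactate from glycolytic cells, had 25.4, 28.8 and 27.1 CPM in Ofd1 CRISPR and 10.02 and 15.2 CPM in Kif3a CRISPR, against 48.5 and 47.1 CPM in GFP controls. The Kif3a CRISPR libraries were farthest below the controls, and every Ofd1 CRISPR library lay between. Slc16a3 fell, on the log2 scale, by 0.82 in Ofd1 CRISPR (SE 0.126, adjusted p = 0.00175) and by 1.93 in Kif3a CRISPR (SE 0.15, adjusted p = 1.62e-05). Slc16a1 (MCT1), the widespread monocarboxylate carrier, had the smallest estimates of the 4, with log2 fold changes of -0.27 (adjusted p = 0.044) in Ofd1 CRISPR and -0.36 (adjusted p = 0.0135) in Kif3a CRISPR. Its call in Ofd1 CRISPR was lost without either GFP control, without Ofd1 CRISPR replicate 1 or 2, and without either Kif3a CRISPR library (adjusted p 0.0546 to 0.264). In Kif3a CRISPR it was lost without either GFP control or either Kif3a CRISPR library (adjusted p 0.0525 to 0.117).

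**Figure D2:**
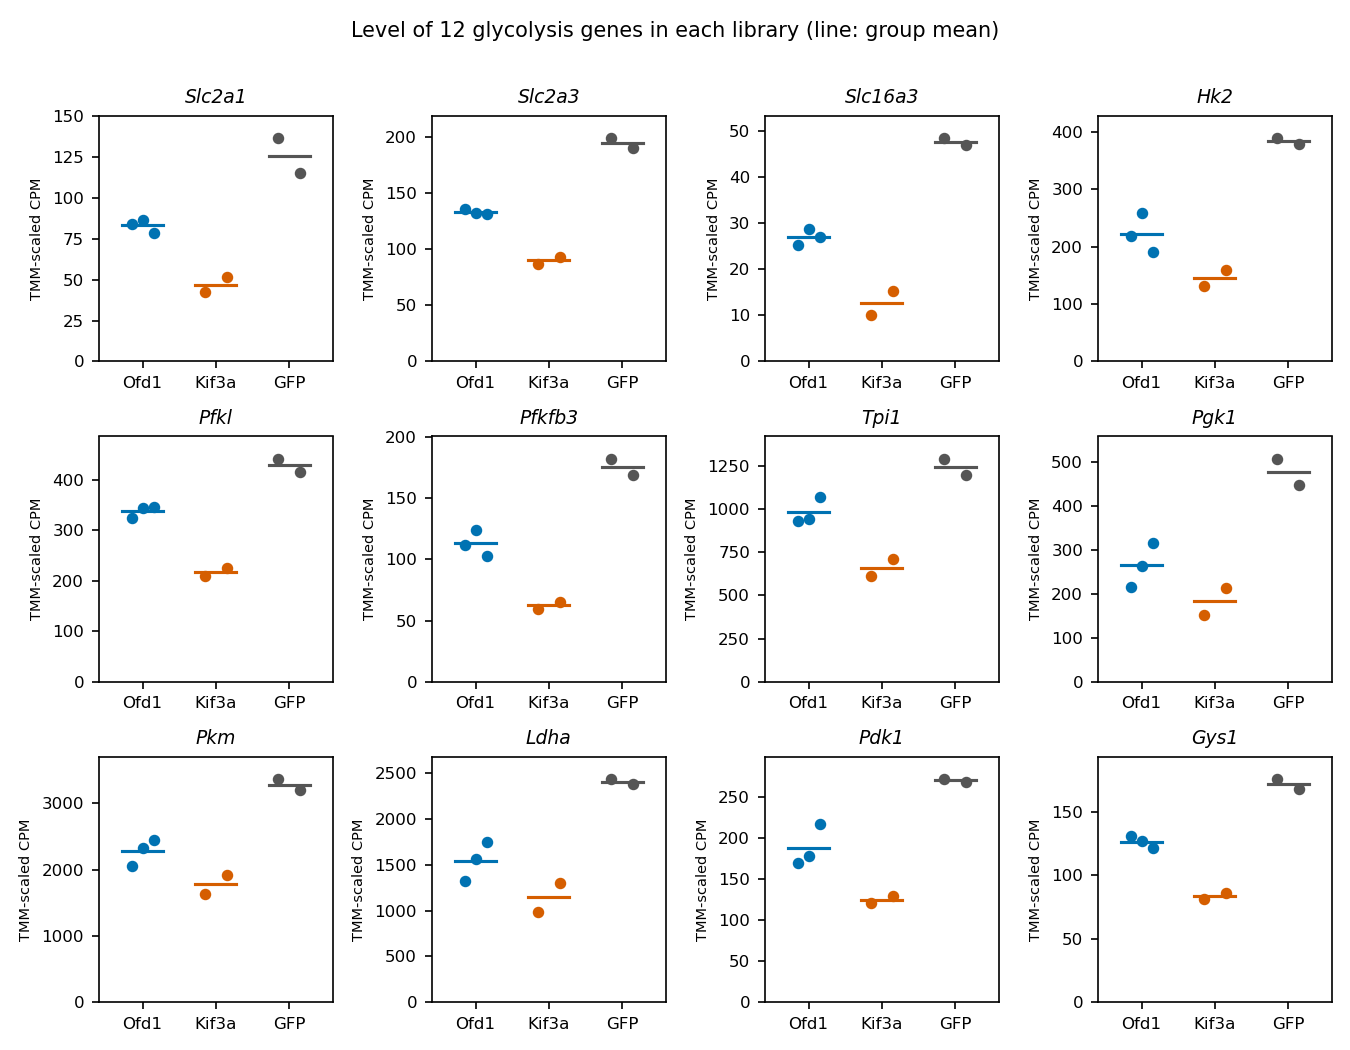
TMM-scaled CPM of 12 members in each library (points) with group means (lines), Ofd1 CRISPR, Kif3a CRISPR and GFP control from left to right on linear axes from 0. In all 12 panels the Kif3a CRISPR libraries are lowest, the GFP controls highest and the Ofd1 CRISPR libraries between them, without overlap.

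Among the hexokinases and the enzymes that follow them, 4 of 6 tested genes were lower in Ofd1 CRISPR and 5 of 6 in Kif3a CRISPR. The count in Ofd1 CRISPR was 1 without GFP control replicate 1. Hk2, the inducible hexokinase, had 218, 258 and 191 CPM in Ofd1 CRISPR and 132 and 159.9 CPM in Kif3a CRISPR, against 389 and 378 CPM in GFP controls. Every CRISPR library lay well under both controls. For Hk2, the log2 fold change against GFP was -0.79 (SE 0.112, adjusted p = 0.00118) in Ofd1 CRISPR and -1.40 (SE 0.127, adjusted p = 5.66e-05) in Kif3a CRISPR. Hk1, the constitutive hexokinase, had 86.9, 79.7 and 81.6 CPM in Ofd1 CRISPR and 64.0 and 62.0 CPM in Kif3a CRISPR, against 91.5 and 92.3 CPM in GFP controls; its log2 fold change was -0.15 (adjusted p = 0.153) in Ofd1 CRISPR and -0.54 (adjusted p = 0.000564) in Kif3a CRISPR. Gpi1, which turns glucose-6-phosphate into fructose-6-phosphate, had 617, 649.7 and 701 CPM in Ofd1 CRISPR and 462 and 516 CPM in Kif3a CRISPR, against 906 and 859 CPM in GFP controls. The 3 groups formed separate bands. Gpi1 fell, on the log2 scale, by 0.43 in Ofd1 CRISPR (SE 0.0769, adjusted p = 0.00387) and by 0.85 in Kif3a CRISPR (SE 0.0856, adjusted p = 8.64e-05). Without GFP control replicate 1 its adjusted p in Ofd1 CRISPR was 0.0595.

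The 3 phosphofructokinase genes differed. Pfkl, the liver-type subunit, had 324, 345 and 345 CPM in Ofd1 CRISPR and 209 and 226 CPM in Kif3a CRISPR, against 442 and 416 CPM in GFP controls, with no overlap. For Pfkl, the log2 fold change against GFP was -0.34 (SE 0.0679, adjusted p = 0.0067) in Ofd1 CRISPR and -0.98 (SE 0.0758, adjusted p = 1.62e-05) in Kif3a CRISPR. Without GFP control replicate 1 the adjusted p in Ofd1 CRISPR was 0.105. Pfkp was the least abundant of the 3 and had the lowest log2 fold change of all tested members in each comparison, with 2.71, 2.50 and 3.86 CPM in Ofd1 CRISPR and 0.777 and 1.35 CPM in Kif3a CRISPR, against 9.63 and 4.76 CPM in GFP controls. The controls themselves lay far apart. Pfkp fell, on the log2 scale, by 1.25 in Ofd1 CRISPR (SE 0.297, adjusted p = 0.0165) and by 2.78 in Kif3a CRISPR (SE 0.386, adjusted p = 0.000575). In Ofd1 CRISPR the Pfkp call was lost without GFP control replicate 1 (log2 fold change -0.65, adjusted p = 0.272), the library with the microglia and macrophage markers, and without Ofd1 CRISPR replicate 2 (adjusted p = 0.0558). Pfkm, the muscle-type subunit, had 166, 154 and 153 CPM in Ofd1 CRISPR and 149 and 139 CPM in Kif3a CRISPR, against 158 and 159.8 CPM in GFP controls. It did not pass in either comparison: the intervals of the log2 difference were -0.16 to 0.13 in Ofd1 CRISPR and -0.30 to 0.02 in Kif3a CRISPR. Per kilobase of exon, Pfkl averaged 50.6 CPM in Ofd1 CRISPR, 32.6 CPM in Kif3a CRISPR and 64.2 CPM in GFP controls. Pfkm averaged 47.2, 43.1 and 47.6 CPM in the same order, so by that measure the 2 subunits swapped rank in Kif3a CRISPR. The lengths are unions of annotated exons, 6675 bases for Pfkl and 3340 for Pfkm. Without division by length, Pfkl stayed above Pfkm in both Kif3a CRISPR libraries.

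The fructose-2,6-bisphosphate enzymes, which both make and break down the activator of phosphofructokinase, split. Pfkfb3, the form with the highest kinase activity, had 112, 124 and 103 CPM in Ofd1 CRISPR and 59.3 and 65.5 CPM in Kif3a CRISPR, against 182 and 169 CPM in GFP controls. All libraries of the 3 groups were separate. For Pfkfb3, the log2 fold change against GFP was -0.64 (SE 0.0838, adjusted p = 0.000785) in Ofd1 CRISPR and -1.49 (SE 0.0958, adjusted p = 8.42e-06) in Kif3a CRISPR. Pfkfb2, the heart form, ran the other way, with 52.2, 48.1 and 47.2 CPM in Ofd1 CRISPR and 66.9 and 57.9 CPM in Kif3a CRISPR, against 40.1 and 43.8 CPM in GFP controls. For Pfkfb2, the log2 fold change was 0.23 (SE 0.0875, adjusted p = 0.0969) in Ofd1 CRISPR and 0.58 (SE 0.0944, adjusted p = 0.00157) in Kif3a CRISPR. Pfkfb4 had 31.9, 30.3 and 29.1 CPM in Ofd1 CRISPR and 30.9 and 30.2 CPM in Kif3a CRISPR, against 25.5 and 25.5 CPM in GFP controls, above both controls in every CRISPR library but short of the threshold (adjusted p = 0.055 in Ofd1 CRISPR and 0.0567 in Kif3a CRISPR). It passed with library totals (adjusted p 0.0352 in Ofd1 CRISPR and 0.0382 in Kif3a CRISPR) and without Ofd1 CRISPR replicate 3 (0.0329 and 0.0439), and in Kif3a CRISPR without Ofd1 CRISPR replicate 1 (0.0478). Pfkfb1, the liver and muscle form, stood at 1.77, 2.17 and 2.52 CPM in Ofd1 CRISPR, 2.29 and 2.16 CPM in Kif3a CRISPR and 1.77 and 1.65 CPM in GFP controls and did not pass, with intervals of -0.19 to 0.85 in Ofd1 CRISPR and -0.18 to 0.94 in Kif3a CRISPR. Per kilobase of exon, Pfkfb3 averaged 14.9 CPM in Ofd1 CRISPR, 8.25 CPM in Kif3a CRISPR and 23.2 CPM in GFP controls, and Pfkfb2 averaged 6.78, 8.61 and 5.78 CPM in the same order.

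In triose and lower glycolysis, 6 of 10 tested genes were lower in Ofd1 CRISPR and 7 in Kif3a CRISPR, with 1 higher. The count lower in Ofd1 CRISPR was 3 without GFP control replicate 2. Tpi1, triosephosphate isomerase, had 932, 940.3 and 1069 CPM in Ofd1 CRISPR and 610.1 and 708 CPM in Kif3a CRISPR, against 1289.5 and 1197 CPM in GFP controls, in 3 separate bands. Tpi1 fell, on the log2 scale, by 0.34 in Ofd1 CRISPR (SE 0.0861, adjusted p = 0.0211) and by 0.92 in Kif3a CRISPR (SE 0.0959, adjusted p = 0.000113). The call in Ofd1 CRISPR was lost without either GFP control or Ofd1 CRISPR replicate 2 (adjusted p 0.0682 to 0.196). Pgk1, the first enzyme of the pathway to make ATP, had 217, 264 and 316 CPM in Ofd1 CRISPR and 153 and 213 CPM in Kif3a CRISPR, against 507 and 447 CPM in GFP controls. Its libraries varied widely within each CRISPR group, yet all stayed under both controls. For Pgk1, the log2 fold change against GFP was -0.85 (SE 0.149, adjusted p = 0.00351) in Ofd1 CRISPR and -1.38 (SE 0.169, adjusted p = 0.000266) in Kif3a CRISPR. Pkm, pyruvate kinase, had 2060.3, 2331 and 2442 CPM in Ofd1 CRISPR and 1633 and 1923 CPM in Kif3a CRISPR, against 3359 and 3193 CPM in GFP controls, and the groups did not overlap. Pkm fell, on the log2 scale, by 0.52 in Ofd1 CRISPR (SE 0.0904, adjusted p = 0.00311) and by 0.88 in Kif3a CRISPR (SE 0.101, adjusted p = 0.000171). Counts per gene do not separate its M1 and M2 splice forms.

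Of the other genes of lower glycolysis, Gapdh had log2 fold changes of -0.56 (adjusted p = 0.00414) in Ofd1 CRISPR and -0.93 (adjusted p = 0.000283) in Kif3a CRISPR. Pgam1, phosphoglycerate mutase, had -0.56 (adjusted p = 0.00978) in Ofd1 CRISPR and -0.90 (adjusted p = 0.000906) in Kif3a CRISPR; without GFP control replicate 2 the adjusted p in Ofd1 CRISPR was 0.0701. Aldoa, the major aldolase, had -0.34 (adjusted p = 0.0291) in Ofd1 CRISPR and -0.62 (adjusted p = 0.00154) in Kif3a CRISPR. The Aldoa call in Ofd1 CRISPR was lost without either GFP control or without Ofd1 CRISPR replicate 1 or 2 (adjusted p 0.0541 to 0.289). Eno3, the muscle enolase, passed in Kif3a CRISPR alone, at -0.55 (adjusted p = 0.009), and lost that call without GFP control replicate 1 or Kif3a CRISPR replicate 1 (adjusted p 0.0708 and 0.0948). Bpgm, which makes 2,3-bisphosphoglycerate, was the gene that rose, at 0.33 (adjusted p = 0.0107) in Kif3a CRISPR, and lost the call without either GFP control or either Kif3a CRISPR library (adjusted p 0.0529 to 0.0984). In Ofd1 CRISPR, Bpgm stood at 0.20 (adjusted p = 0.0784) and passed with library totals (adjusted p = 0.0454) and without Ofd1 CRISPR replicate 3 (adjusted p = 0.0358). Aldoc, the brain aldolase, had 114, 72.7 and 97.1 CPM in Ofd1 CRISPR and 85.2 and 72.7 CPM in Kif3a CRISPR, against 96.7 and 98.0 CPM in GFP controls, overlapping between Ofd1 CRISPR and GFP. Its log2 intervals were -0.35 to 0.27 in Ofd1 CRISPR and -0.64 to 0.04 in Kif3a CRISPR. Eno2, the neuronal enolase, had 19.5, 16.8 and 16.6 CPM in Ofd1 CRISPR and 13.6 and 16.0 CPM in Kif3a CRISPR. GFP controls had 18.8 and 19.7 CPM. Eno2 did not pass (adjusted p = 0.49 in Ofd1 CRISPR and 0.0534 in Kif3a CRISPR). In Kif3a CRISPR it passed without Ofd1 CRISPR replicate 1 (adjusted p = 0.0298) or 3 (adjusted p = 0.0496). There it also passed without a filter on low counts, with a replicate block and in a fit of only the 2 groups compared. Eno1, the widespread enolase, held 0 to 5 counts per library and was not tested. Eno1 has a near-identical copy, Eno1b, listed with 3 to 8 counts, and reads that fit both may not have been counted, so its level is uncertain. Gapdh, Pgk1, Aldoa, Tpi1, Pkm, Pgam1 and Ldha also have many processed pseudogenes in the mouse and may be undercounted.

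Ldha, the lactate-forming subunit, had 1326, 1561 and 1744 CPM in Ofd1 CRISPR and 986 and 1301 CPM in Kif3a CRISPR, against 2429 and 2375 CPM in GFP controls. The lowest library of all was Kif3a CRISPR replicate 1, and the controls lay far above the other 5. For Ldha, the log2 fold change against GFP was -0.64 (SE 0.121, adjusted p = 0.00532) in Ofd1 CRISPR and -1.07 (SE 0.136, adjusted p = 0.000338) in Kif3a CRISPR. Ldhb, the subunit that favours the return of lactate to pyruvate, had 164, 155 and 153 CPM in Ofd1 CRISPR and 153 and 155 CPM in Kif3a CRISPR, against 144 and 134 CPM in GFP controls. It lay above both controls in all 5 CRISPR libraries but did not pass (adjusted p = 0.09 in Ofd1 CRISPR and 0.176 in Kif3a CRISPR). The ratio of Ldha to Ldhb counts was 8.09, 10.1 and 11.4 in Ofd1 CRISPR libraries and 6.46 and 8.39 in Kif3a CRISPR libraries, against 16.9 and 17.7 in GFP controls.

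The pyruvate dehydrogenase kinases split 2 to 1. Pdk1 had 169.5, 178 and 218 CPM in Ofd1 CRISPR and 121 and 129.7 CPM in Kif3a CRISPR, against 272 and 269 CPM in GFP controls, with no overlap. Pdk1 fell, on the log2 scale, by 0.52 in Ofd1 CRISPR (SE 0.0947, adjusted p = 0.00414) and by 1.11 in Kif3a CRISPR (SE 0.106, adjusted p = 6.97e-05). Pdk3 had 42.4, 46.8 and 47.9 CPM in Ofd1 CRISPR and 41.8 and 39.1 CPM in Kif3a CRISPR, against 58.7 and 55.1 CPM in GFP controls. For Pdk3, the log2 fold change against GFP was -0.32 (SE 0.079, adjusted p = 0.0204) in Ofd1 CRISPR and -0.49 (SE 0.0874, adjusted p = 0.0025) in Kif3a CRISPR. The Pdk3 call in Ofd1 CRISPR was lost without either GFP control or Ofd1 CRISPR replicate 1 (adjusted p 0.0546 to 0.206). Pdk2 was higher in both groups, with 131, 109.8 and 108 CPM in Ofd1 CRISPR and 122 and 114 CPM in Kif3a CRISPR, against 96.2 and 83.5 CPM in GFP controls. For Pdk2, the log2 fold change was 0.37 (SE 0.0952, adjusted p = 0.0229) in Ofd1 CRISPR and 0.39 (SE 0.103, adjusted p = 0.0209) in Kif3a CRISPR. Without GFP control replicate 2, the lower control, the adjusted p of Pdk2 was 0.227 in Ofd1 CRISPR and 0.175 in Kif3a CRISPR, and the Kif3a CRISPR call was also lost without either Kif3a CRISPR library (adjusted p 0.172 and 0.0635). Pdk4, the kinase of fasted muscle and liver, was near the floor at 0.936, 0.668 and 0.874 CPM in Ofd1 CRISPR, 0.605 and 0.701 CPM in Kif3a CRISPR and 0.983 and 1.25 CPM in GFP controls and did not pass (adjusted p = 0.394 in Ofd1 CRISPR and 0.152 in Kif3a CRISPR). Per kilobase of exon, Pdk1 averaged 24.2 CPM in Ofd1 CRISPR, 16.1 CPM in Kif3a CRISPR and 34.8 CPM in GFP controls. Pdk2 averaged 36.8, 37.2 and 28.4 CPM in the same order. By that measure Pdk2 ranked above Pdk1 in the CRISPR groups and below it in the controls. The lengths are unions of annotated exons, 7779 bases for Pdk1 and 3163 for Pdk2. Without division by length, Pdk1 stayed above Pdk2 in all Ofd1 CRISPR libraries and in Kif3a CRISPR replicate 2.

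Of the 4 genes of the complex those kinases act on, Dlat was lower in both CRISPR groups. Dlat, the acetyltransferase core, had 66.7, 74.2 and 73.9 CPM in Ofd1 CRISPR and 68.6 and 69.1 CPM in Kif3a CRISPR, against 88.0 and 81.6 CPM in GFP controls, without overlap to the controls. Dlat fell, on the log2 scale, by 0.25 in Ofd1 CRISPR (SE 0.0737, adjusted p = 0.045) and by 0.30 in Kif3a CRISPR (SE 0.0812, adjusted p = 0.0227). The Dlat call in Ofd1 CRISPR was lost without either GFP control, Ofd1 CRISPR replicate 1 or 2, or either Kif3a CRISPR library (adjusted p 0.0682 to 0.339), and in Kif3a CRISPR without either GFP control or either Kif3a CRISPR library (adjusted p 0.061 to 0.206). Pdha1 and Pdhb, the subunits of the decarboxylase, and Dld, the dehydrogenase, did not pass; their log2 fold changes were -0.17, 0.07 and -0.14 in Ofd1 CRISPR and -0.09, 0.15 and -0.08 in Kif3a CRISPR. Pdha1 passed in Ofd1 CRISPR without Ofd1 CRISPR replicate 3 (log2 fold change -0.22, adjusted p = 0.043).

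Gys1, the glycogen synthase of tissues other than liver, had 131, 127 and 122 CPM in Ofd1 CRISPR and 81.3 and 86.5 CPM in Kif3a CRISPR, against 176 and 168 CPM in GFP controls. The spread within each group was small beside the gaps between them. For Gys1, the log2 fold change against GFP was -0.44 (SE 0.0656, adjusted p = 0.00141) in Ofd1 CRISPR and -1.03 (SE 0.0737, adjusted p = 1.4e-05) in Kif3a CRISPR. Gbe1, the glycogen branching enzyme, had log2 fold changes of -0.13 (adjusted p = 0.511) in Ofd1 CRISPR and -0.30 (adjusted p = 0.129) in Kif3a CRISPR, where it passed without Ofd1 CRISPR replicate 3 (adjusted p = 0.045). Pygl, the liver glycogen phosphorylase, held 0 or 1 count in 6 libraries and 14 counts in GFP control replicate 1, the library with the microglia and macrophage markers, and was not tested. Without GFP control replicate 2 it passed the filter, and 2 glycogen genes, Gys1 and Pygl, were then lower in each CRISPR group, the Pygl call resting on those 14 counts as the 1 control value.

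**Figure D3:**
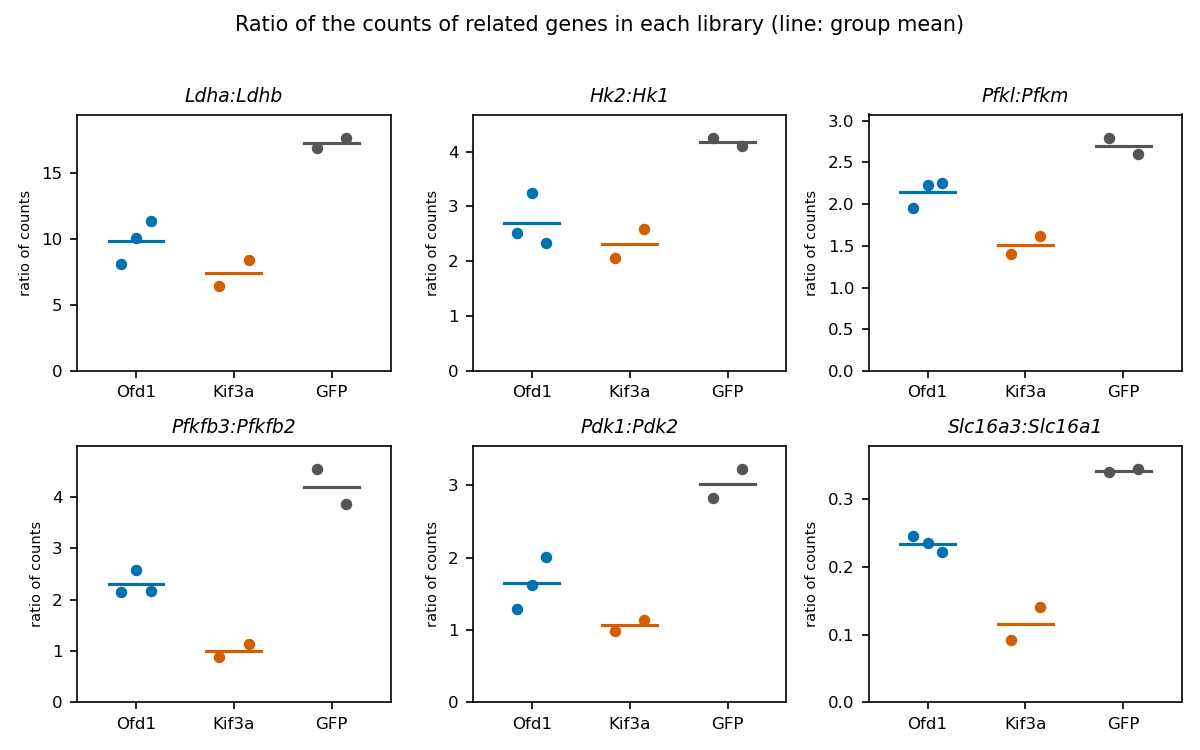
Ratio of the counts of 2 related genes in each library (points) with group means (lines), for 6 gene pairs in Ofd1 CRISPR, Kif3a CRISPR and GFP control, on linear axes from 0. In every panel all 5 CRISPR libraries lie under both controls; Ldha to Ldhb reached 6.46 to 11.4 in CRISPR libraries and 16.9 and 17.7 in controls.

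Ratios of related genes within a library do not depend on scaling between libraries, and show unequal change of their members. Pdk1 to Pdk2 was 1.30, 1.62 and 2.01 in Ofd1 CRISPR and 0.994 and 1.14 in Kif3a CRISPR, against 2.83 and 3.22 in GFP controls. Pfkfb3 to Pfkfb2 was 2.15, 2.57 and 2.18 in Ofd1 CRISPR and 0.886 and 1.13 in Kif3a CRISPR, against 4.54 and 3.86 in GFP controls. Hk2 to Hk1 was 2.51, 3.24 and 2.34 in Ofd1 CRISPR and 2.06 and 2.58 in Kif3a CRISPR, against 4.25 and 4.10 in GFP controls. In each pair the gene with the larger count in the controls lost share to its partner, and in Kif3a CRISPR replicate 1 both Pdk1 and Pfkfb3 counts were under those of their partners. Slc16a3 to Slc16a1 was 0.245, 0.236 and 0.222 in Ofd1 CRISPR and 0.0923 and 0.140 in Kif3a CRISPR, against 0.340 and 0.344 in GFP controls. Aldoa to Aldoc overlapped between all groups, at 20.7, 33.7 and 27.5 in Ofd1 CRISPR and 22.1 and 30.6 in Kif3a CRISPR, against 34.6 and 30.1 in GFP controls. Slc2a1 to Slc2a3 overlapped between Ofd1 CRISPR and GFP.

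The CRISPR groups were then set against each other, a difference that does not use the GFP mean. The GFP controls still entered the filter, the scaling and the estimate of spread of that fit. Of the 36 tested members, 8 were higher in Ofd1 CRISPR than in Kif3a CRISPR and none was lower in edgeR's test, where 0.171% of all tested genes were called higher and 0.00777% lower (0.179% either way). At an unadjusted p below 0.05, 19 members were higher and 1 lower, beside 5.51% and 4.04% of all tested genes. DESeq2 called 15 members higher and 0 lower, beside 0.784% and 0.0466% of all tested genes. The 8 were Slc16a3 (1.12, SE 0.143, adjusted p = 0.0058), Pfkfb3 (0.86, SE 0.0889, adjusted p = 0.00426), Slc2a1 (0.83, SE 0.102, adjusted p = 0.00527), Pfkl (0.64, SE 0.07, adjusted p = 0.00426), Gys1 (0.59, SE 0.0682, adjusted p = 0.00426), Pdk1 (0.59, SE 0.0982, adjusted p = 0.0395), Tpi1 (0.57, SE 0.0883, adjusted p = 0.0273) and Slc2a3 (0.56, SE 0.0661, adjusted p = 0.00426). They make up 34.8% of the 23 genes called in this comparison and 22.2% of the tested members. The median log2 difference of the 36 was 0.31, beside -0.00 over all tested genes. Pfkp had a larger difference (1.54, SE 0.392) that did not pass at its low counts (adjusted p = 0.208). For Slc16a1 the log2 difference was 0.10 with an interval of -0.08 to 0.27, and for Pdk2 it was -0.02 with an interval of -0.22 to 0.19; neither passed, which does not show that the levels were equal. Among the 15 other called genes were Egln3 (0.78, adjusted p = 0.0058) and Egln1 (0.57, adjusted p = 0.00605), oxygen-sensing prolyl hydroxylases, and P4ha2 (1.56, adjusted p = 0.0046), a collagen prolyl hydroxylase; they were named after their values were seen. No gene passed without Kif3a CRISPR replicate 1: the 8 members then had log2 differences of 0.47 to 0.83 and adjusted p-values of 0.257 to 0.995, with 555 genes and 14 members at an unadjusted p below 0.05. Pdk1 also lost its call without either GFP control, Ofd1 CRISPR replicate 2 or Kif3a CRISPR replicate 2 (adjusted p 0.0622 to 0.211), and Tpi1 without Ofd1 CRISPR replicate 2 or Kif3a CRISPR replicate 2 (adjusted p 0.0635 and 0.0661). Without Ofd1 CRISPR replicate 1, 12 members passed, with Gpi1, Hk2, Pgk1 and Pkm added (adjusted p 0.0208 to 0.0481), beside 0.344% of all tested genes called higher, and Hk2 also passed without Ofd1 CRISPR replicate 3 (adjusted p = 0.0295).

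**Figure D4:**
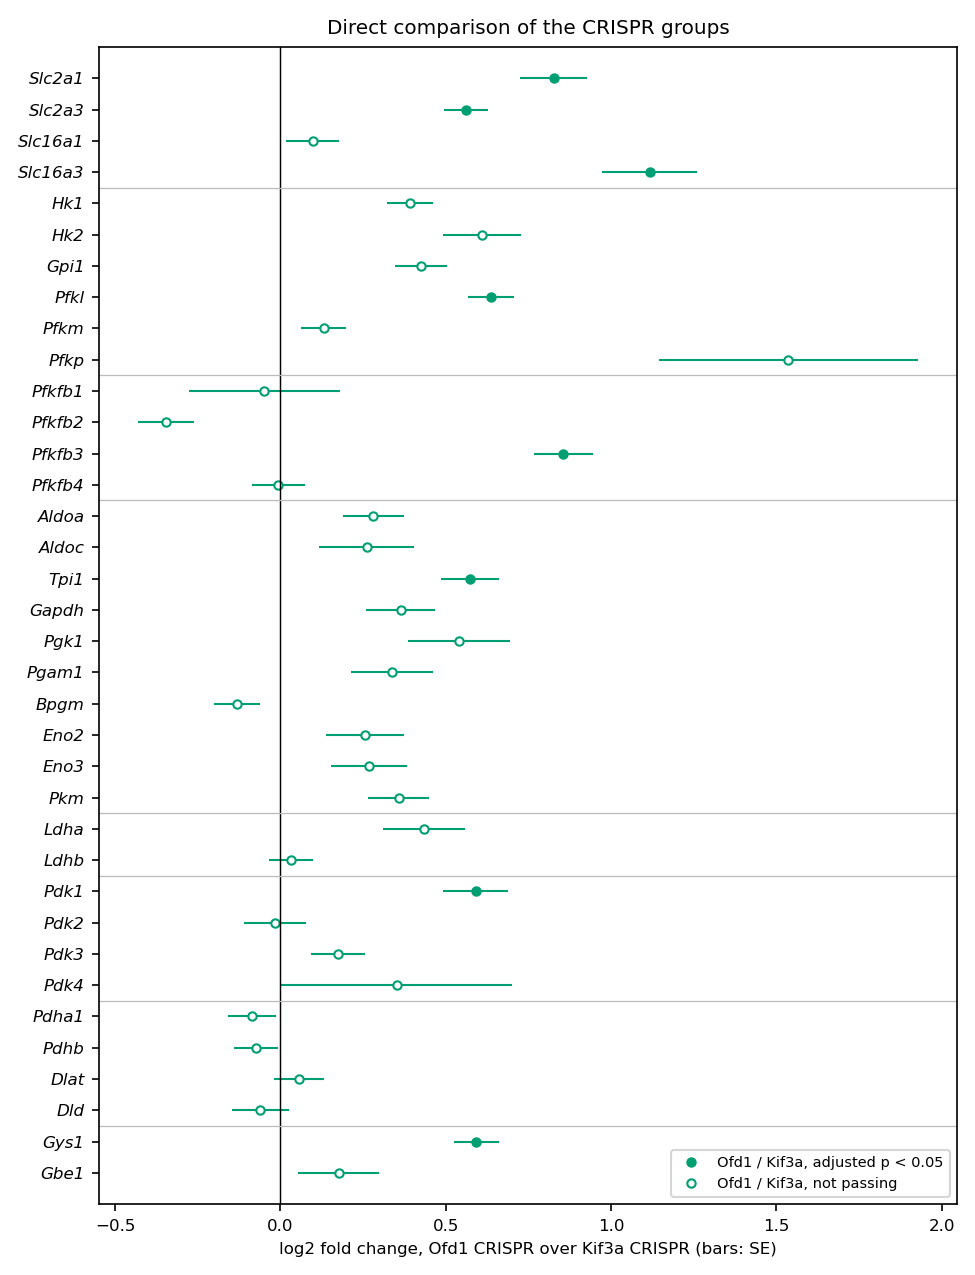
Log2 difference (bars: SE) of each tested member, Ofd1 CRISPR over Kif3a CRISPR. The test called 8 members higher in Ofd1 CRISPR. Slc16a3, Pfkfb3 and Slc2a1 lie farthest to the right among the called genes, and the SE bars of Pdk2, Pfkfb4 and Ldhb span 0.

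By level, 19 of the 36 tested members (52.8%) had every Kif3a CRISPR library below every Ofd1 CRISPR library and every Ofd1 CRISPR library below both GFP controls, an order that 4.52% of all tested genes showed. They were Slc2a1, Slc2a3, Slc16a3, Hk1, Hk2, Gpi1, Pfkl, Pfkp, Pfkfb3, Aldoa, Tpi1, Gapdh, Pgk1, Eno3, Pkm, Ldha, Pdk1, Pdk3 and Gys1. Bpgm and Pfkfb2 (5.56%) had the opposite order, shown by 3.18% of all tested genes. Per kilobase of exon, the most abundant members were Aldoa at 672 CPM in Ofd1 CRISPR, 554 CPM in Kif3a CRISPR and 849 CPM in GFP controls, Ldha at 466, 346 and 726 CPM in the same order, and Pkm at 456, 356 and 655 CPM. Replicates also differed in a like way across members: among the 20 genes lower in Ofd1 CRISPR, Kif3a CRISPR replicate 1 was below replicate 2 in 18 (90%), where it was in 48.5% of all tested genes. Ofd1 CRISPR replicate 1 was the lowest of its group in 14 of the 20 (70%), beside 34.3% of all tested genes. Ofd1 CRISPR replicate 3 was the highest of its group in 13 of the 20 (65%), beside 35.5% of all tested genes. GFP control replicate 1 was above replicate 2 in 19 of the 20 (95%), beside 48.6% of all tested genes.

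Neighbouring pathways were read from lists made by function, and their counts stand beside 8.09% of all tested genes called lower and 6.79% higher in Ofd1 CRISPR, and 10.9% lower and 9.19% higher in Kif3a CRISPR. Of 14 other tested glycolysis genes, 2 were lower and 1 higher in Ofd1 CRISPR, and 3 were lower and 1 higher in Kif3a CRISPR. Bsg (basigin), the chaperone that carries monocarboxylate transporters to the membrane, had log2 fold changes of -0.48 (adjusted p = 0.00379) in Ofd1 CRISPR and -0.75 (adjusted p = 0.000341) in Kif3a CRISPR; without GFP control replicate 1 the adjusted p in Ofd1 CRISPR was 0.0659. Slc2a6 (GLUT6) was higher, at 0.56 (adjusted p = 0.0281) in Ofd1 CRISPR and 0.81 (adjusted p = 0.00496) in Kif3a CRISPR. Adpgk, an ADP-dependent glucokinase, was lower at -0.26 (adjusted p = 0.0432) in Ofd1 CRISPR and -0.28 (adjusted p = 0.0355) in Kif3a CRISPR. Galk1, galactokinase, was lower in Kif3a CRISPR (-0.56, adjusted p = 0.00694; -0.24 in Ofd1 CRISPR, adjusted p = 0.145). Of these calls, Slc2a6 in Ofd1 CRISPR, Adpgk in both groups and Galk1 in Kif3a CRISPR were each lost without 1 or more single libraries: Slc2a6 without either GFP control or Ofd1 CRISPR replicate 1 or 2 (adjusted p 0.0524 to 0.203), Galk1 without Kif3a CRISPR replicate 1 (log2 fold change -0.37, adjusted p = 0.104), and Adpgk without any library but Ofd1 CRISPR replicate 3 in Ofd1 CRISPR (adjusted p 0.0617 to 0.269) and without either GFP control, either Kif3a CRISPR library or Ofd1 CRISPR replicate 2 in Kif3a CRISPR (adjusted p 0.0501 to 0.199).

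Of 15 other pyruvate genes, 3 were lower in each CRISPR group and none was higher. Gpt2, which links alanine to pyruvate in mitochondria, averaged 211 CPM in Ofd1 CRISPR and 181 CPM in Kif3a CRISPR, against 551 CPM in GFP controls (log2 fold changes -1.38, adjusted p = 0.000393, and -1.61, adjusted p = 0.000165). Pck2, mitochondrial phosphoenolpyruvate carboxykinase, averaged 69.9 CPM in Ofd1 CRISPR and 58.2 CPM in Kif3a CRISPR, against 172 CPM in GFP controls (-1.30, adjusted p = 0.000776, and -1.56, adjusted p = 0.000283). Their log2 fold changes in Ofd1 CRISPR were below that of every tested member. Pcx, pyruvate carboxylase, had -0.37 (adjusted p = 0.0315) in Ofd1 CRISPR and -0.41 (adjusted p = 0.0229) in Kif3a CRISPR; its calls were lost without either GFP control or either Kif3a CRISPR library, and in Ofd1 CRISPR also without Ofd1 CRISPR replicate 1 (adjusted p 0.0516 to 0.231).

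Of 22 other glycogen genes, 2 were lower and 1 higher in Ofd1 CRISPR, and 2 were lower and 2 higher in Kif3a CRISPR. The 9.09% lower in each group lies near the share of all tested genes. Ppp1r3c, which targets a phosphatase to glycogen, had -0.97 (adjusted p = 0.0234) in Ofd1 CRISPR and -1.70 (adjusted p = 0.00203) in Kif3a CRISPR. Its call was lost in Ofd1 CRISPR without any 1 of the libraries other than Ofd1 CRISPR replicates 1 and 3 (adjusted p 0.0518 to 0.11) and in Kif3a CRISPR without Kif3a CRISPR replicate 1 (adjusted p = 0.0741). Pgm2, a phosphoglucomutase, rose by 0.59 in Ofd1 CRISPR (adjusted p = 0.0109; 0.0976 without GFP control replicate 2). In Kif3a CRISPR, Phkb (0.37, adjusted p = 0.0221), a phosphorylase kinase subunit, and Ppp1r3d (0.73, adjusted p = 0.0328), a phosphatase subunit, were higher. Phkb lost its call without either GFP control or Kif3a CRISPR replicate 1 (log2 fold change 0.22 and adjusted p = 0.214 without the last), and Ppp1r3d without GFP control replicate 2 (0.46, adjusted p = 0.252) or either Kif3a CRISPR library (adjusted p 0.0954 and 0.182).

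In the pentose phosphate pathway 2 of 10 genes, Tkt (transketolase) and Rpe, were lower in Ofd1 CRISPR, and Tkt was lower in Kif3a CRISPR. Tkt had -0.22 (adjusted p = 0.0468) in Ofd1 CRISPR and -0.33 (adjusted p = 0.00856) in Kif3a CRISPR, and Rpe had -0.41 (adjusted p = 0.0262) in Ofd1 CRISPR. Without either GFP control both were lost (adjusted p 0.121 to 0.253 in Ofd1 CRISPR, and 0.0659 and 0.0665 for Tkt in Kif3a CRISPR), as they were in Ofd1 CRISPR without Ofd1 CRISPR replicate 1 or 2 or either Kif3a CRISPR library (adjusted p 0.0547 to 0.12) and for Tkt in Kif3a CRISPR without Kif3a CRISPR replicate 1 (adjusted p = 0.106). None of 22 tricarboxylic acid cycle genes passed in Ofd1 CRISPR by edgeR or DESeq2, and 4 were lower at an unadjusted p below 0.05, beside 15.9% of all tested genes. In Kif3a CRISPR, 3 were lower: Ogdh at -0.32 (adjusted p = 0.00794) and Ogdhl at -0.50 (adjusted p = 0.0096), both 2-oxoglutarate dehydrogenases, and Idh2 at -0.27 (adjusted p = 0.0499). Without GFP control replicate 1 or without Kif3a CRISPR replicate 1, none of these 3 passed (adjusted p 0.0563 to 0.327). Idh2 also lost its call without GFP control replicate 2 (adjusted p = 0.23), Ofd1 CRISPR replicate 2 (0.074) or Kif3a CRISPR replicate 2 (0.0588), and Ogdh without GFP control replicate 2 (0.0659). Of 3 gluconeogenesis genes, Slc37a4, the glucose-6-phosphate translocase, was lower at -0.48 (adjusted p = 0.0166) in Ofd1 CRISPR and -0.78 (adjusted p = 0.00169) in Kif3a CRISPR; without either GFP control its adjusted p in Ofd1 CRISPR was 0.12 and 0.083.

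Of 9 tested HIF subunits and hydroxylases, 2 were lower and 1 higher in each CRISPR group. Egln3, a prolyl hydroxylase that marks HIF for destruction and is itself a HIF target, averaged 86.6 CPM in Ofd1 CRISPR and 50.4 CPM in Kif3a CRISPR, against 161 CPM in GFP controls (-0.90, adjusted p = 0.000276, and -1.68, adjusted p = 8.42e-06). Egln1, its relative, had -0.47 (adjusted p = 0.00159) in Ofd1 CRISPR and -1.04 (adjusted p = 1.62e-05) in Kif3a CRISPR. Arnt2, a partner subunit of HIF, was higher, at 0.34 (adjusted p = 0.0206) in Ofd1 CRISPR and 0.35 (adjusted p = 0.0217) in Kif3a CRISPR. Its calls were lost without either GFP control and, in Kif3a CRISPR, without Kif3a CRISPR replicate 1 (adjusted p 0.0769 to 0.185).

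**Figure D5:**
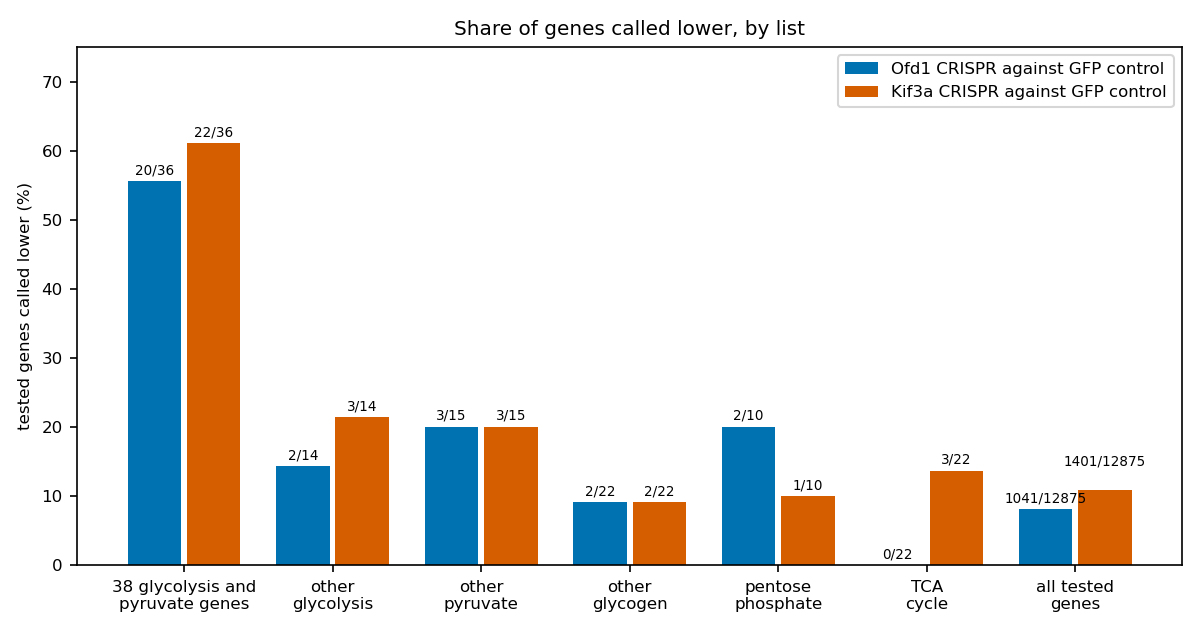
Percent of tested genes called lower against GFP controls in Ofd1 CRISPR and Kif3a CRISPR, for the 38 glycolysis and pyruvate genes, 5 neighbouring pathways and all tested genes; labels give genes called over genes tested. The glycolysis and pyruvate genes stand at 55.6% and 61.1%, beside 8.09% and 10.9% of all tested genes. The lists of gluconeogenesis (1 of 3 lower in each group) and of HIF subunits and hydroxylases (2 of 9) are not drawn.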

How the data were processed

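RNA of 7 SMB21 libraries was sequenced as 75-base single-end reads from stranded mRNA libraries made from 500 ng of RNA, per the labels' protocols. The authors deposited raw read counts per gene symbol in 1 table, and the submitters' processing notes name STAR, mm9 and DESeq2. Neither the counter nor its annotation and strand setting is stated in these sources. From those counts, genes were kept with edgeR's filterByExpr over the groups, scaled by TMM factors and tested with edgeR's quasi-likelihood F test (edgeR 4.0.16, limma 3.58.1, R 4.3.3) in 1 model with a mean per group and 4 residual degrees of freedom. All 7 libraries entered the fit, and p-values were adjusted by Benjamini-Hochberg over 12875 genes. The common biological coefficient of variation was 7.43%. SE is the size of the log2 fold change over the square root of F. CPM values are TMM-scaled. Levels per kilobase use the union of each gene's annotated exons in GENCODE's GRCm38 annotation, which is not the mm9 build of the counts. The code was tested on simulated data. Called members were described by library for up to 3 of the smallest adjusted p per role, with uncalled isozymes of called genes, and up to 4 called genes per neighbouring list. The members and lists were chosen with earlier results of these data known. Alternatives were RLE factors, library totals, other filters, a replicate block, fits of 2 groups, DESeq2 1.42.0 and leaving out each library. The 95% intervals of log2 fold changes come from that fit and include the spread between libraries, while the floor of 3 counts covers counting error only.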

Additional observations from a re-analysis of the deposited data

How the results depend on the processing

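Of the called members, 11 of 21 in Ofd1 CRISPR against GFP and 20 of 25 in Kif3a CRISPR against GFP kept their call under every alternative run, and 0 of 8 did in Ofd1 CRISPR against Kif3a CRISPR, where all 8 were lost without Kif3a CRISPR replicate 1. In Ofd1 CRISPR against GFP, members higher were 3 with library totals alone, 2 with a mean of at least 2 CPM and 5 with the replicate block, against 1. The shares of all tested genes called higher were 8.96%, 7.63% and 12.6% in the same order, against 6.79%. Leaving out 1 library gave 664 to 2831 called genes, 12 to 21 members lower and 0 to 3 higher in that comparison. It gave 686 to 3119 called genes, 19 to 24 members lower and 1 to 4 higher in Kif3a CRISPR against GFP, and 0 to 50 called genes with 0 to 12 members higher in Ofd1 CRISPR against Kif3a CRISPR. Without a filter the last comparison called 80 genes and 13 members, and with DESeq2 107 genes and 15 members. In Ofd1 CRISPR against GFP, Slc16a1, Dlat, Adpgk and Tkt lost their calls with library totals (adjusted p 0.0627 to 0.0772). They also lost them in the fit of 2 groups (adjusted p 0.0538 to 0.06485). In Kif3a CRISPR against GFP, Adpgk and Idh2 lost theirs with library totals (adjusted p 0.05335 and 0.0709). By DESeq2, Adpgk lost its call in both comparisons with GFP (adjusted p 0.0611 and 0.0547) and Ppp1r3c in Ofd1 CRISPR (0.103). The ACGTG letters alone were in 41.1% of member promoters. Directions that turned belong to uncalled values near 0: Pfkm in Ofd1 CRISPR (0.023 with library totals; -0.047 to 0.0101 without single libraries), Aldoc in Ofd1 CRISPR (-0.19 to 0.12), and, in Ofd1 CRISPR against Kif3a CRISPR, Pfkfb1 (-0.18 to 0.078), Pfkfb4 (-0.042 to 0.0257) and Pdk2 (-0.11 to 0.0327). For all of these the cause was not tested.

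The labels give replicate numbers but no shared batch. Deviations of same-numbered libraries correlated at 0.152 to 0.234 in 4 pairings and at -0.00857 between GFP and Kif3a CRISPR. In a group of 2 libraries the deviations mirror each other, so these values cannot decide whether the numbers pair the libraries. As the labels name no shared batch, the main fit held no replicate block. With the replicate block, 3496 genes were called in Ofd1 CRISPR against GFP, 3575 in Kif3a CRISPR against GFP and 191 in Ofd1 CRISPR against Kif3a CRISPR, and log2 values were 0.0086 for Pfkm in Ofd1 CRISPR, and 0.0258 for Pfkfb4 and 0.029 for Pdk2 in the last. Members called in it were 22 lower in Ofd1 CRISPR, 25 lower and 4 higher in Kif3a CRISPR and 11 higher in Ofd1 CRISPR against Kif3a CRISPR. Of all tested genes, 14.6% were lower in Ofd1 CRISPR and 0.963% higher in Ofd1 CRISPR against Kif3a CRISPR. In Kif3a CRISPR 14.6% were lower and 13.2% higher, and the 4 higher of 36 tested members lie near that last share. Calls gained under the block were Pfkfb2, Pfkfb4, Bpgm and Ldhb higher and Pdha1 and Dld lower in Ofd1 CRISPR (adjusted p 0.0266 to 0.0431), and Pfkfb4 higher and Aldoc, Eno2 and Gbe1 lower in Kif3a CRISPR (adjusted p 0.0293 to 0.0499). With 2 libraries in each of 2 groups, precision is limited by their number, and Pfkp, Pdk4 and Pfkfb1 by depth as well.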
